A study of Rattus norvegicus with 4 samples.

Results

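The mRNAs of the nuclear-encoded subunits of mitochondrial complex I were examined in rat INS-1 832/13 β-cells after silencing of Tbk1. The subunits were taken as the protein-coding genes of the deposited table whose name starts with Nduf, without the Ndufaf assembly factors. Described here are 35 of the 15172 listed genes, 6 core subunits and 29 accessory subunits, and all 35 passed the filter on low counts. Ndufa4, which is now assigned to complex IV, and the paralogs Ndufa4l2 and Ndufa10l1 entered by their names and are counted among the accessory subunits. The row named Ndufs6 is listed as a processed pseudogene and was left out, and Ndufa1, Ndufa10 and Ndufb1 were not analysed here.

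INS-1 832/13 is a clonal rat insulinoma line that secretes insulin in response to glucose, so all samples are of 1 cell line. The control cells (siScramble) received a non-targeting siRNA, and the silenced cells (siTbk1) received a SMARTpool, a mixture of siRNAs against Tbk1. Transfection with DharmaFECT reagent lasted 36 h in both groups. Stranded mRNA libraries were sequenced from 2 samples per group, which carry the replicate numbers 2 and 3. No label says that the samples came from separate cultures, so p-values measure the spread between these samples, which may be technical. An exact permutation test of 2 against 2 samples cannot give a p below 0.333, so all tests below come from the fit across all genes.

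Complex I takes electrons from NADH, passes them along a chain of iron-sulfur clusters to ubiquinone, and pumps protons across the inner mitochondrial membrane. Its L-shaped structure has a matrix arm, which oxidizes NADH and holds the clusters, and a membrane arm, which pumps. The core subunits are conserved from bacteria and carry out the chemistry. They are encoded in the nucleus for the matrix arm and in mitochondrial DNA for the membrane arm. The accessory subunits surround the core, are all encoded in the nucleus, and are needed for assembly and stability. In β-cells the respiratory chain provides the ATP that couples glucose metabolism to insulin release.

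The total count per library lay between 38428926 and 47759013, and 3 counts correspond to 0.0628 to 0.0781 CPM (counts per 1000000 of the TMM-scaled library). Tbk1 itself was at 53.7 and 52.5 CPM in siScramble and at 11.8 and 13.3 CPM in siTbk1 (values here and below in the order replicate 2, replicate 3), a log2 fold change of -2.08 ± 0.0757 (SE; adjusted p = 3.74e-08). All 10 β-cell markers examined were measured, and their summed level was 19300 to 20160 CPM in siScramble and 15080 to 16710 CPM in siTbk1. This sum is dominated by Ins1, at 10380 and 11090 CPM in siScramble and at 7520 and 6244 CPM in siTbk1. By adjusted p 4 of the markers fell (Ins1, Ins2, Pdx1 and Slc2a2) and 4 rose (Iapp, Nkx6-1, Pax6 and Pcsk1). The other 2 markers did not pass the test. Of all tested genes, 24.8% fell and 24.4% rose by adjusted p. The α-cell hormone gene Gcg was at 1389 and 1313 CPM in siScramble and at 815.1 and 877.7 CPM in siTbk1, and Pdgfra, a fibroblast marker, was at 5.35 to 6.75 CPM and at 8.53 to 8.95 CPM. The δ-cell marker Hhex stayed at or below 0.229 CPM and the summed macrophage markers Cd68 and Adgre1 at or below 0.425 CPM. The part of these shifts in the results below was not tested. In bulk RNA, fewer cells of a type and less RNA per cell cannot be told apart.

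After silencing of Tbk1 a part of the complex I subunit mRNAs was lower, by modest amounts, and few were higher. Ndufb7, an accessory subunit of the intermembrane space side, fell by 48.8%. Ndufs7, the core subunit that carries the terminal iron-sulfur cluster before ubiquinone, fell by 47.3%. In all, 14 of the 35 subunits (40%) fell at an adjusted p-value under 0.05, against 24.8% of all tested genes. Their siTbk1 to siScramble ratios lay between 0.512 and 0.889. Ndufs1 and Ndufa4 rose (5.71% of the 35, against 24.4% of all tested genes), by 14.1% and 13.5%. The remaining 19 did not pass the test in either direction.

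With the additional requirement of a 1.5-fold change, 2 of the 35 subunits (5.71%) were called lower, against 6.18% of the 13953 tested genes. None of the 35 was called higher with the edgeR quasi-likelihood test, against 4.81% of the tested genes, although 2 had an unadjusted p under 0.05 in that direction, and DESeq2 also called 0. The share called lower was thus close to that of all genes. By adjusted p alone, 14 of 35 (40%) were lower against 24.8% of all genes, and 2 of 35 (5.71%) were higher against 24.4%. With DESeq2 the same 14 and the same 2 passed. Both siTbk1 libraries lay below both siScramble libraries for 16 subunits (45.7%), against 37.9% of all genes, and above them for 7 (20%), against 38.7%. The median log2 fold change of the 35 subunits was -0.05, with a range from -0.97 to 0.19, and the median of all genes was 0.01. No test over the list was made, because the list was chosen with earlier results known. Without Ndufa4 and the 2 paralogs the median of the other 32 was -0.08, and 14 of them (43.8%) were lower and 1 (3.12%) higher by adjusted p.

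Of all counts, the 35 genes together took 0.301% in siScramble replicate 2, 0.313% in siScramble replicate 3, 0.281% in siTbk1 replicate 2 and 0.281% in siTbk1 replicate 3. Without Ndufa4 these shares were 0.256% and 0.267% in siScramble against 0.233% and 0.230% in siTbk1. Both silenced libraries were therefore below both control libraries in either form. These shares are of the unscaled totals, without the TMM factors of 1.01 and 1.02 in siScramble and 0.985 and 0.982 in siTbk1. With library size alone the median log2 fold change of all genes was -0.04, so a part of the lower shares is common to all genes. For 8 subunits some counts were fractional, so that their reads may be shared with near-identical copies and their values are less certain: Ndufa3, Ndufa10l1, Ndufa12, Ndufa13, Ndufb4, Ndufb6, Ndufs5 and Ndufv3. Among the other 27 subunits, 11 were lower by adjusted p (40.7%, against 24.8% of all genes) and 2 higher (7.41%, against 24.4%). Their median was again -0.05.

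**Figure D1:**
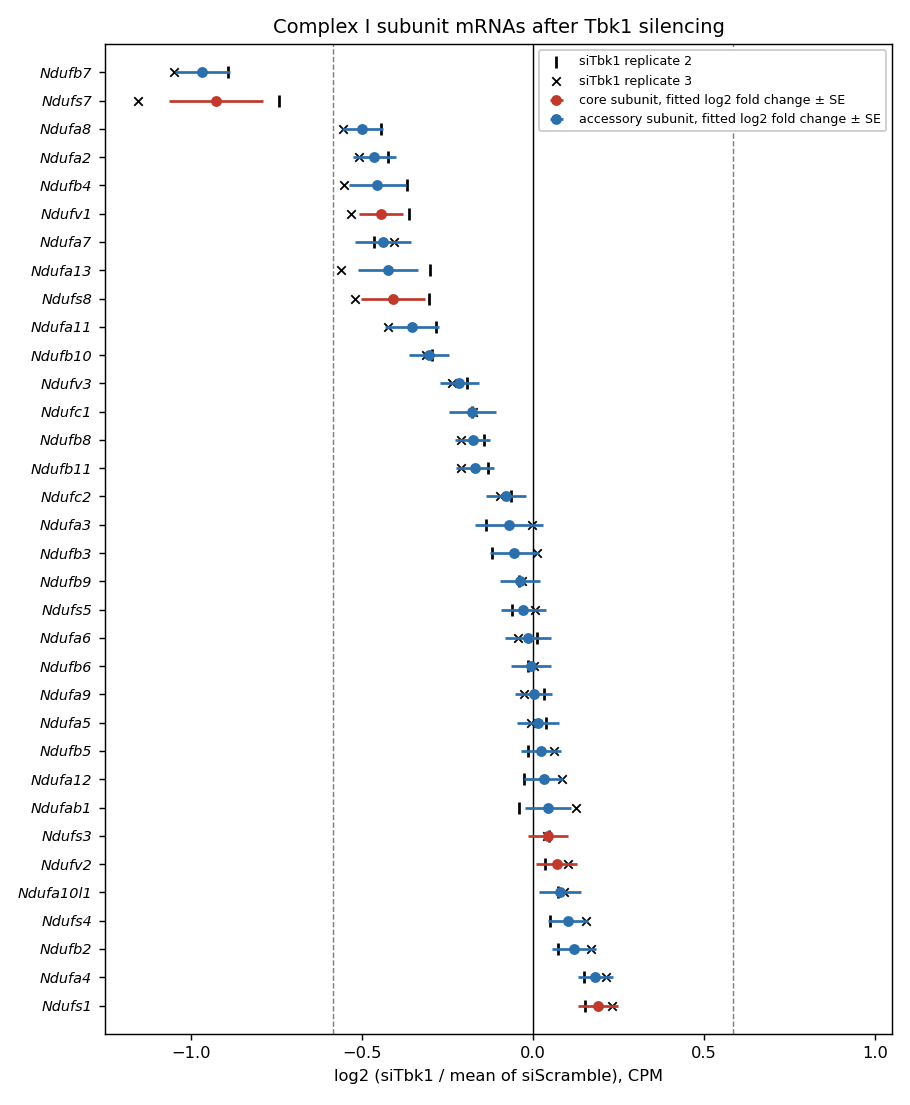
Log2 fold change (siTbk1 over siScramble, horizontal axis) of the subunits, one per line, with core subunits in red, accessory subunits in blue, bars for the SE of the fit, and black marks for each siTbk1 library against the mean of the siScramble libraries. Dashed lines mark a 1.5-fold change, which Ndufb7 (-0.97) and Ndufs7 (-0.93) passed, and Ndufa4l2, with 7 to 9 counts per library, is not drawn.

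Of the 6 core subunits described, 3 fell (50%, against 24.8% of all genes), 1 rose (16.7%, against 24.4%) and 2 did not pass the test. Ndufs7 was at 12.6 and 15.5 CPM in siScramble and at 8.36 and 6.28 CPM in siTbk1, from 604, 614, 393 and 237 counts. The groups did not overlap, and the log2 fold change was -0.93 ± 0.138 (SE; adjusted p = 0.000188). The gene lies at chr7:12318757-12326393 on the minus strand of rn6 and spans 7.64 kb. Ndufv1 holds the flavin that accepts electrons from NADH. Its level was 135.5 and 143.0 CPM in siScramble and 108.3 and 96.3 CPM in siTbk1, with no overlap, and it fell by 26.4% (log2 fold change -0.44 ± 0.0641 SE; adjusted p = 0.000158). Ndufs8, which carries iron-sulfur clusters on the path to Ndufs7, was at 35.5 and 42.4 CPM in siScramble and at 31.4 and 27.1 CPM in siTbk1. The groups did not overlap, and it fell by 24.7% (log2 fold change -0.41 ± 0.0931 SE; adjusted p = 0.00316). Ndufv1 and Ndufs8 lie 110 kb apart on chromosome 1, the only pair among the 35 genes within 1 Mb of each other.

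Ndufs1, the largest core subunit, which carries iron-sulfur clusters next to the NADH site, went the other way. Its level was 121.8 and 113.6 CPM in siScramble and 130.7 and 138.1 CPM in siTbk1, so every silenced library was above every control library. The log2 fold change was 0.19 ± 0.0578 (SE; adjusted p = 0.0162; 95% interval 0.07 to 0.32). This result rests on the samples numbered 3, since its adjusted p was 0.131 without siScramble replicate 3 and 0.126 without siTbk1 replicate 3. It was 0.0519 with library size alone in place of TMM scaling.

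Ndufv2 and Ndufs3 did not pass the test. Ndufv2, the iron-sulfur partner of Ndufv1, was at 50.6 and 50.4 CPM in siScramble and at 51.8 and 54.2 CPM in siTbk1 (log2 fold change 0.07, 95% interval -0.06 to 0.20; adjusted p = 0.365). Ndufs3 was at 60.9 and 62.1 CPM in siScramble and at 63.5 and 63.3 CPM in siTbk1 (log2 fold change 0.04, 95% interval -0.08 to 0.17; adjusted p = 0.554). These intervals exclude a fall of the size measured for Ndufv1, Ndufs8 or Ndufs7. Ndufv1 thus fell while its partner Ndufv2 did not pass the test.

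**Figure D2:**
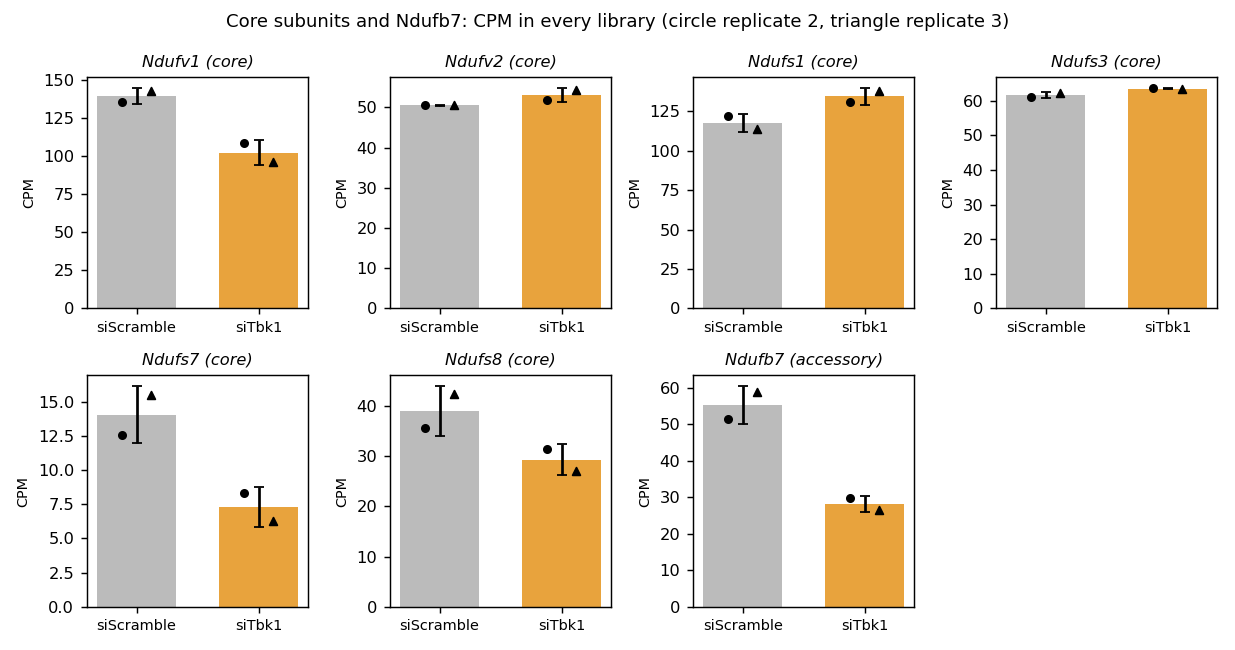
CPM (vertical axis, from 0, a scale of its own in each panel) of the 6 core subunits described and of Ndufb7 in every library. Bars show the mean of 2 samples and error bars the SD, and the circle and the triangle show replicates 2 and 3. Ndufb7, Ndufs7, Ndufv1 and Ndufs8 have both siTbk1 points below both siScramble points, and Ndufs1, Ndufv2 and Ndufs3 have both above, of which Ndufs1 passed the test.

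Among the 8 accessory subunits of the matrix arm, 3 fell (37.5%, against 24.8% of all genes). None rose with the edgeR test (against 24.4%), where 0 were higher also at an unadjusted p under 0.05. Ndufa2, a thioredoxin-like subunit near the NADH-oxidizing end, was at 64.2 and 68.0 CPM in siScramble and at 49.3 and 46.5 CPM in siTbk1. It fell by 27.5% (log2 fold change -0.46 ± 0.0624 SE; adjusted p = 9.99e-05). Ndufa7, another small subunit of this arm, was at 33.1 and 39.0 CPM in siScramble and at 26.0 and 27.1 CPM in siTbk1, and it fell by 26.1% (log2 fold change -0.44 ± 0.0821 SE; adjusted p = 0.000921). Ndufv3, which sits beside the flavin subunits and had split reads, fell by 13.9%, from 143.0 and 155.7 CPM to 130.5 and 126.6 CPM (adjusted p = 0.00840). Ndufv3 no longer passed the adjusted p threshold without siScramble replicate 3 or siTbk1 replicate 3.

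The other 5 accessory subunits of the matrix arm had log2 fold changes between -0.01 for Ndufa6 and 0.10 for Ndufs4. Ndufs4, whose loss causes complex I deficiency in humans and mice, was at 134.1 and 125.7 CPM in siScramble and at 134.5 and 144.7 CPM in siTbk1 (95% interval -0.02 to 0.23; adjusted p = 0.168). Ndufa9, which binds next to the ubiquinone pocket, had a log2 fold change of 0.00 with a 95% interval from -0.12 to 0.12. Ndufa5 was at 0.02 with a 95% interval from -0.12 to 0.15, and Ndufa12, with split reads, at 0.03 with a 95% interval from -0.10 to 0.16.

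In the membrane arm, 8 of 17 accessory subunits fell (47.1%, against 24.8% of all genes). None rose with the edgeR test (against 24.4%), where 0 were higher also at an unadjusted p under 0.05. A log2 fold change below 0 was found for 15 of 17, and for 6860 of the 13953 tested genes. Ndufb7 was at 51.5 and 58.8 CPM in siScramble and at 29.7 and 26.6 CPM in siTbk1, from 2472, 2329, 1396 and 1004 counts. The groups were far apart, and the log2 fold change was -0.97 ± 0.0798 (SE; adjusted p = 4.31e-06). The gene lies at chr19:24701049-24705406 on the plus strand of rn6 and spans 4.36 kb. Ndufb7 belongs to a set of subunits with twin CX9C motifs, which are folded by disulfide bonds in the intermembrane space. Ndufa8, of the same kind, was at 103.5 and 106.7 CPM in siScramble and at 77.3 and 71.5 CPM in siTbk1, and it fell by 29.2% (log2 fold change -0.50 ± 0.0593 SE; adjusted p = 4.68e-05). Ndufb10, also with this motif, fell by 19.0%, from 57.6 and 59.2 CPM to 47.6 and 47.0 CPM (log2 fold change -0.30 ± 0.0588 SE; adjusted p = 0.00112). The other subunit of this kind, Ndufs5, had split reads and did not pass the test (log2 fold change -0.03, 95% interval -0.17 to 0.11).

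Of the remaining membrane arm subunits, Ndufb4 was at 34.1 and 38.4 CPM in siScramble and at 28.04 and 24.7 CPM in siTbk1 (log2 fold change -0.45 ± 0.0822 SE; adjusted p = 0.000722). Ndufa13, also known as GRIM-19, was at 44.8 and 50.6 CPM in siScramble and at 38.7 and 32.3 CPM in siTbk1 (log2 fold change -0.42 ± 0.0877 SE; adjusted p = 0.00175). Both had split reads, and for both the groups did not overlap. Ndufa11, a transmembrane subunit at the boundary of the proton-pumping modules, was at 71.0 and 83.3 CPM in siScramble and at 63.3 and 57.3 CPM in siTbk1 (log2 fold change -0.35 ± 0.0789 SE; adjusted p = 0.00282). Ndufb8 and Ndufb11, which span the inner membrane, fell by 11.5% and 11.0%. Ndufb8 was at 292.4 and 289.5 CPM in siScramble and at 263.4 and 251.6 CPM in siTbk1 (adjusted p = 0.0131). Ndufb11 was at 119.3 and 124.4 CPM in siScramble and at 111.3 and 105.4 CPM in siTbk1 (adjusted p = 0.0249). Ndufb8 no longer passed the adjusted p threshold without siTbk1 replicate 3, nor did Ndufb11 without siScramble replicate 3 or siTbk1 replicate 3.

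Ndufc1 was just outside the threshold, with a log2 fold change of -0.18 at an adjusted p of 0.0507. Its level was 26.0 and 26.8 CPM in siScramble and 23.3 and 23.3 CPM in siTbk1, without overlap. Ndufc2, Ndufa3, Ndufb3, Ndufb9, Ndufb6 and Ndufb5 had log2 fold changes between -0.08 and 0.02. The highest value in this arm was that of Ndufb2, at 40.3 and 41.8 CPM in siScramble and at 43.2 and 46.1 CPM in siTbk1 (log2 fold change 0.12, 95% interval -0.02 to 0.26; adjusted p = 0.137). It did not pass the test, although both silenced libraries were above both controls, and it passed as higher after the correction for genomic span described below (log2 fold change 0.22; adjusted p = 0.0169).

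The 4 remaining genes belong to neither list of arm subunits. Ndufa4, first described in complex I and now counted with cytochrome c oxidase, was at 444.5 and 448.2 CPM in siScramble and at 495.2 and 517.8 CPM in siTbk1. It rose, with a log2 fold change of 0.18 ± 0.0510 (SE; adjusted p = 0.0105), and its adjusted p was 0.0908 without siTbk1 replicate 3. Ndufab1, the mitochondrial acyl carrier protein, which is present in both arms, was at 57.2 and 59.1 CPM in siScramble and at 56.6 and 63.4 CPM in siTbk1 (log2 fold change 0.04, 95% interval -0.10 to 0.19). Ndufa10l1, a paralog of Ndufa10 with split reads, had a log2 fold change of 0.08 with a 95% interval from -0.05 to 0.21. Ndufa4l2, known as a hypoxia-inducible paralog of Ndufa4, had 7 to 9 counts per library, and its 95% interval from -1.23 to 1.15 allows a change of any size seen among the other members.

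The shares that fell by adjusted p were 50% of the 6 core and 37.9% of the 29 accessory subunits, against 24.8% of all genes. Each class held 1 subunit called lower (16.7% and 3.45%, against 6.18% of all genes). The log2 fold changes of the core subunits fell into 3 from -0.93 to -0.41 and 3 from 0.04 to 0.19. Their median, -0.18, lies in the gap between these and was -0.13 from the accessory median of -0.05. The sign of that difference turns when 1 of the 3 core subunits that fell is left out, but not when 1 of the other 3 is. The difference therefore gives no order of the classes. It was -0.02 without siTbk1 replicate 3, -0.20 without siTbk1 replicate 2, and -0.11 without Ndufa4 and the 2 paralogs among the accessory subunits. The median of all 35 was -0.11 without siScramble replicate 2 and -0.12 without siTbk1 replicate 3, and -0.10 with library size alone. By position, the median was -0.01 for the 14 subunits of the matrix arm and -0.17 for the 17 of the membrane arm, a difference of 0.16. Both siTbk1 libraries were below both siScramble libraries for 6 of the 14 (42.9%) and for 10 of the 17 (58.8%), against 37.9% of all genes. The membrane arm genes were shorter, with a median genomic span of 6.41 kb against 8.93 kb. After a correction of all libraries for a trend along genomic span, the difference between the arms was 0.04. Genes are not replicates, and these differences between groups of genes were not tested.

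Genomic span, the distance from the first to the last annotated base with introns included, was short for these genes. The median was 7.08 kb over the 35 subunits, with a range from 1.71 kb to 104 kb, and 20.1 kb over all tested genes. Over all tested genes the listed span ran from 0.135 kb to 197000 kb and exceeded 3000 kb for 12. For such genes it may not be the length of 1 gene. They were kept in the correlation over all genes and in the span correction. All 14 subunits that fell were shorter than the median gene, but so were 30 of all 35. Across the subunits the log2 fold change was higher for longer genes, with a Spearman correlation of 0.39 and a Pearson correlation of 0.30 with log10 span (n = 35 genes of the same libraries). Across all 13953 tested genes these were 0.21 and 0.18. Over the core subunits alone the Spearman correlation was 0.60 (n = 6), and over the accessory subunits 0.33 (n = 29). The longest core gene was Ndufs1, at 33.3 kb, and the shortest was Ndufs8, at 3.32 kb. Without siScramble replicate 3 the Spearman correlation over the 35 subunits was 0.25.

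In the tertile of all tested genes up to 10.4 kb the median log2 fold change was -0.10, and 30.8% of the genes fell by adjusted p. This tertile held 25 of the subunits, which had a median of -0.17 and of which 12 fell and 1 rose. In the tertile from there to 36.6 kb the median of all genes was -0.01 and 26.7% fell, and the 8 subunits had a median of 0.01, with 2 lower and 1 higher. In the tertile above 36.6 kb the median of all genes was 0.11 and 16.9% fell, and the 2 subunits there, Ndufa12 and Ndufs4, were at 0.03 and 0.10. The trend with span was thus shared by the table as a whole. With the span correction 11 of the 14 subunits stayed lower by adjusted p, Ndufv3, Ndufb8 and Ndufb11 being lost, and the median of the 35 moved to -0.01. The subunits higher by adjusted p went from 2 to 4 with this correction, Ndufa10l1 and Ndufb2 being added. The part of gene length in the falls was not tested further. The log2 fold change also had a Spearman correlation of 0.34 and a Pearson correlation of 0.20 with the mean log2 CPM of the 35 subunits.

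**Figure D3:**
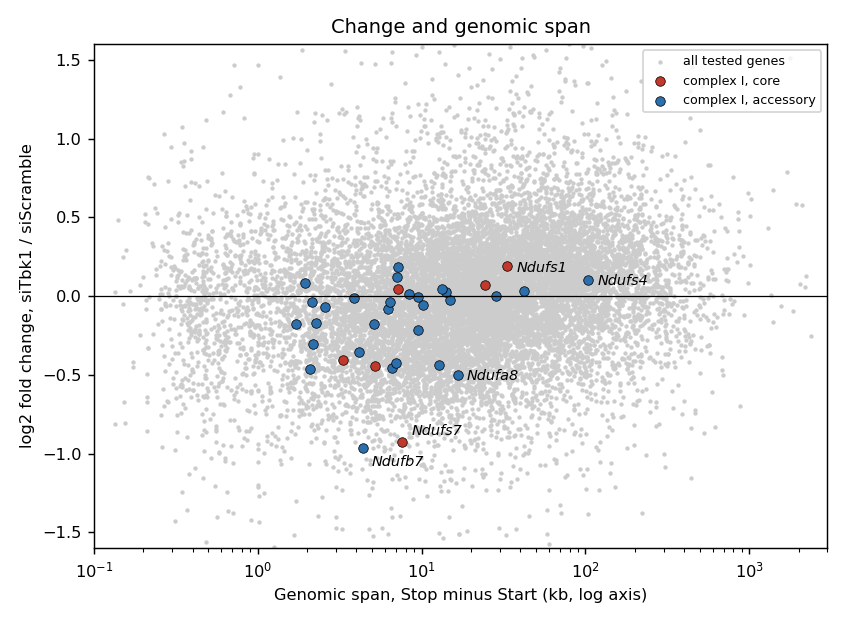
Log2 fold change (siTbk1 over siScramble, vertical axis) against genomic span in kb (horizontal log axis) for all tested genes in grey, core subunits in red and accessory subunits in blue. The subunits lie to the left, at a median of 7.08 kb, and those that fell are all shorter than 20.1 kb, while 60 grey genes lie beyond the vertical limits and 12 beyond the horizontal limit.

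The sizes of the falls differed between replicates. Of the 14 subunits that fell, 13 were lower in siTbk1 replicate 3 than in siTbk1 replicate 2, and 13 were higher in siScramble replicate 3 than in siScramble replicate 2. Both held for 12 (85.7%). Of all 3454 genes that fell and had counts in every library, 80.7%, 77.1% and 64.9% did so. The median log2 change of the 14 subunits was -0.28 between the samples numbered 2 and -0.56 between those numbered 3, against -0.32 and -0.50 over all genes that fell. Over all 35 subunits, siScramble replicate 3 was above siScramble replicate 2 for 27 (77.1%), against 50% of all genes with counts in every library. The median log2 difference of the 35 between these control samples was 0.07. The median log2 fold change between the groups, -0.05, was thus no larger in size than this control difference. For Ndufs7 the log2 fold change lay between -1.17 and -0.74 when 1 sample was left out, and for Ndufb7 between -1.06 and -0.87.

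Promoters of the subunits were read from RefSeq (build GRCr8, 250 bases before to 50 bases after the first listed start of a gene). An entry was matched for 32 of the 35 genes, and Ndufa8, Ndufb9 and Ndufa10l1 had no match. The letters searched, on both strands, were GCGCANGCG for NRF1, CCGGAAG for ETS factors such as GABP, AANATGGC for YY1 and GGGCGG for SP1, all known regulators of nuclear respiratory genes. A palindromic stretch can match on both strands, matches can overlap, and each promoter was counted once per motif. The YY1 letters were in 15 of 32 subunit promoters (46.9%), against 9.89% of the 10267 promoters of genes in the table and 7.36% of all 27457 RefSeq promoters. These letters hold an ATG, so they can also be a start codon. The NRF1 letters were in 8 of 32 (25%), against 12.8% and 6.26%. The ETS letters were in 6 (18.8%), against 16.9% and 9.22%, and the SP1 letters in 13 (40.6%), against 62.5% and 34.9%. The median GC content was 56.7% in the subunit promoters, 61.0% in those of genes in the table and 52.3% in all.

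Among the 13 matched subunits that fell, the YY1 letters were in 7 (53.8%), the NRF1 letters in 4 (30.8%), the ETS letters in 4 (30.8%) and the SP1 letters in 5 (38.5%). Among the 19 other matched subunits they were in 8 (42.1%), 4 (21.1%), 2 (10.5%) and 8 (42.1%). These counts are small and are given as a description.

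The 250 bases before the start are shown for the called subunits Ndufb7 and Ndufs7, for Ndufs8, another core subunit that fell, and for Ndufs1, which rose. Each is written 5′ to 3′ on the strand of the gene, with matches to the NRF1, ETS and YY1 letters in capitals. In GRCr8 they lie on the minus strand at chr19:41477292-41477541, chr7:10110499-10110748, chr1:210573699-210573948 and chr9:72073606-72073855, in that order.
Ndufb7: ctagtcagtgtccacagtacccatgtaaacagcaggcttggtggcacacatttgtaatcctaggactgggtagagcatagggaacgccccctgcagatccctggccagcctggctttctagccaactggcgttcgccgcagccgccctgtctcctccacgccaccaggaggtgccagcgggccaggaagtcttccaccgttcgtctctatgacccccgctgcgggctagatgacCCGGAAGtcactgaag
Ndufs7: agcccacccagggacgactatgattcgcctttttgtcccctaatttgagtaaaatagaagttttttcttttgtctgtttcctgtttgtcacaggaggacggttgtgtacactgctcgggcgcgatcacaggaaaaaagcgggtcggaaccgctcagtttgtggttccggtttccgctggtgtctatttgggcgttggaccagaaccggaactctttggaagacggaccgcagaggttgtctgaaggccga
Ndufs8: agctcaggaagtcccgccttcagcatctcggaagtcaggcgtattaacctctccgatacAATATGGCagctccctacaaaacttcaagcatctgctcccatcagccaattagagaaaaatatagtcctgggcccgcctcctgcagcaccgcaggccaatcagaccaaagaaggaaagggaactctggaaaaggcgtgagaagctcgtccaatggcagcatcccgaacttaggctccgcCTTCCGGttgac
Ndufs1: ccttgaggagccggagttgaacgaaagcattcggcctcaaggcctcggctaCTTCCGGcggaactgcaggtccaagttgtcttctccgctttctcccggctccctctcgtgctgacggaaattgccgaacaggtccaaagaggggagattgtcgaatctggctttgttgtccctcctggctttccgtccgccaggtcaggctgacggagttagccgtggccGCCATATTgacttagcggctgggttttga
In Ndufb7 the ETS letters begin 16 bases before the start, and SP1 letters, not in capitals, begin 109 bases before it. In Ndufs8 the ETS letters begin 12 bases before the start and the YY1 letters 191 bases before it. Ndufs1, which rose, holds the same motifs as Ndufs8, with the ETS letters 199 bases and the YY1 letters 29 bases before the start. Ndufs7 has none of the letters in the bases shown, and its YY1 match begins 4 bases after the start. Ndufv1, the remaining core subunit that fell, is not shown and has no match to any of the letters searched. A match to these letters is not a measured binding site.

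The complex I subunits encoded in mitochondrial DNA, which form the core of the membrane arm, rose. Of the 17 nuclear subunits of that arm, 8 fell (47.1%, against 24.8% of all genes). All 7 mitochondrially encoded subunits were higher by adjusted p (against 24.4% of all genes). Their log2 fold changes ran from 0.35 to 0.58 with a median of 0.43, and none was called at the 1.5-fold limit. Mt-nd5, the distal proton-pumping subunit, was at 2139 and 2022 CPM in siScramble and at 2979 and 3247 CPM in siTbk1 (log2 fold change 0.58 ± 0.0596 SE; adjusted p = 1.75e-05). Mt-nd6 was the lowest, at 7.47 and 7.57 CPM in siScramble and at 9.29 and 9.96 CPM in siTbk1. Most of these transcripts are cut from a shared precursor, so the 7 are not independent of each other.

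Of the 18 assembly factors tested, which build complex I without staying in it, 3 fell (16.7%, against 24.8% of all genes), 2 rose (11.1%, against 24.4%) and none was called, with a median of 0.02. Ecsit, known also from innate immune signalling, was at 18.2 and 18.9 CPM in siScramble and at 13.9 and 13.8 CPM in siTbk1 (log2 fold change -0.42; adjusted p = 0.00101). Ndufaf3 and Dmac1 also fell, by 0.36 and 0.29 on the log2 scale. Ndufaf4 rose, from 77.4 and 69.1 CPM to 90.1 and 96.0 CPM (log2 fold change 0.34; adjusted p = 0.00113), and so did Tmem126b, by 0.32 on the log2 scale. Ndufaf3 and Ndufaf4, which act together early in assembly, thus changed in opposite directions.

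The nuclear subunits of the other respiratory complexes were mixed as well. In complex III, 5 of 9 fell (55.6%, against 24.8% of all genes) and 2 rose (22.2%, against 24.4%), with a median of -0.16. Uqcr10 was called lower (log2 fold change -0.63; adjusted p = 0.000154) while Uqcrc2 rose by 0.24 on the log2 scale. In complex V, the ATP synthase, 6 of 16 fell (37.5%) and 2 rose (12.5%), with a median of -0.10. Atp5f1d, its δ subunit, had split reads and was called lower (log2 fold change -0.70; adjusted p = 2.84e-05), and Atp5pb rose by 0.20. In complex IV, 9 subunits were tested without Ndufa4, which rose and is described above. Of these 9, 3 fell (33.3%) and 0 rose with the edgeR test, also at an unadjusted p under 0.05, with a median of -0.05. The largest fall was in Cox4i1, at -0.38, while the highest value among these 9, 0.15 for Cox5a, did not pass the test. Cox5a, Cox5b and Cox6b1 had split reads, and of these Cox6b1 fell. In complex II, Sdha fell by 0.25 and Sdhc rose by 0.36 on the log2 scale, with a median of -0.03 over 4 subunits. The share that fell in complex I (40%) lay between those of the 9 complex IV subunits (33.3%) and complex III (55.6%), and these shares were not tested against each other.

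Of 9 regulators of respiratory genes, 2 fell (22.2%, against 24.8% of all genes) and 3 rose (33.3%, against 24.4%), with a median of 0.15. This median is the value of Tfam, which did not pass the test (adjusted p = 0.0654). Ppargc1a, the coactivator PGC-1α, was called higher, from 5.996 and 5.66 CPM in siScramble to 10.2 and 9.75 CPM in siTbk1 (log2 fold change 0.77; adjusted p = 0.000110). Its nuclear receptor partner Esrra (ERRα) was called lower, from 30.4 and 37.2 CPM to 24.1 and 19.5 CPM (log2 fold change -0.62; adjusted p = 0.000544). Gabpa, the ETS subunit of GABP, and Yy1 rose by 0.33 and 0.29 on the log2 scale, and the related coactivator Pprc1 fell by 0.41. Nrf1 did not pass the test (log2 fold change -0.10; adjusted p = 0.253).

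**Figure D4:**
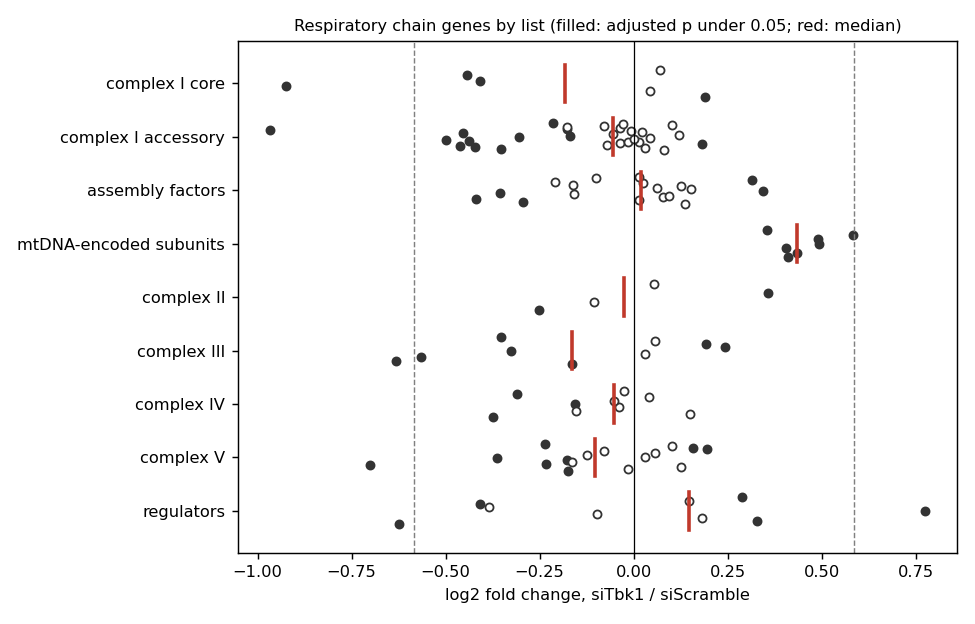
Log2 fold change (siTbk1 over siScramble, horizontal axis) of every tested gene in 9 lists of respiratory chain genes, with filled points for an adjusted p under 0.05, a red line for the median of the list and dashed lines at a 1.5-fold change. The mtDNA-encoded complex I subunits all lie between 0.35 and 0.58, while the nuclear core and accessory subunits run from -0.97 to 0.19.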

How the data were processed

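RNA from 4 samples was analysed, 2 siScramble and 2 siTbk1. The authors deposited estimated counts per gene, not scaled between libraries, for 15172 genes. The submitters' processing notes name STAR 2.6.1d, Partek and build rn6. In a library, 21.1% to 22.3% of the values lay more than 0.01 from a whole number, and a gene with such a value was said to have split reads.

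Counts were rounded, filtered with filterByExpr (minimum count 10, leaving 13953 genes) and scaled by TMM, with factors from 0.982 to 1.02. The quasi-likelihood test of edgeR 4.0.16 in R 4.3.3 compared the 2 treatments with no other term, with Benjamini-Hochberg adjustment over all tested genes. Calls needed an adjusted p under 0.05 together with a 1.5-fold change or more. The biological coefficient of variation was 0.0482. The number of samples limits the precision.

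Of 36 genes that match the rule, 1 is not reported here. Members and lists were chosen with earlier results of these data known. Values are given in full for called subunits, core subunits, the 3 largest changes in each direction and those past 1.2-fold at an adjusted p under 0.05, and for other lists the called genes and the largest change in each direction. Others were named after their values were seen. Alternatives were a replicate block, DESeq2 1.42.0, other scalings, no filter, glmTreat, adjusted p alone, a loess correction (span 0.5) along genomic span with and without the block, and leaving out each sample. Tests were checked on simulated data with planted changes larger than any measured among the subunits and no trend along span. That check does not cover small changes or the removal of a span trend. Figures used matplotlib 3.10.9.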

Additional observations from a re-analysis of the deposited data

How the results depend on the processing

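By adjusted p alone, without a fold change limit, 14 subunits were lower (40%, against 24.8% of all genes) and 2 higher (5.71%, against 24.4%). With glmTreat against a 1.5-fold change 1 was lower. The count of 2 called lower was the same under the replicate block, DESeq2, library size alone, DESeq2 size factors in edgeR, no filter, the span correction and each sample left out. With the span correction, alone and with the replicate block, the median log2 fold change of the 35 subunits was -0.006 and -0.006 (main value -0.054), the difference between the matrix and membrane arms was 0.042 and 0.043 (main value 0.162), and the Spearman correlation with span was 0.157 and 0.157 (main value 0.389). The correction left 11 of the 14 lower by adjusted p and added Ndufa10l1 and Ndufb2 to the 2 higher, and with the block Ndufb2 was added (adjusted p = 0.0344) and Ndufs1 lost (adjusted p = 0.112). With library size alone the median was -0.101, while the median of all genes moved to -0.040. With each sample left out in turn, the median ranged from -0.119 to -0.035, the core minus accessory difference from -0.203 to -0.017 (main value -0.129), the arm difference from 0.110 to 0.143, and the Spearman correlation from 0.250 to 0.425. Ndufs3 turned to -0.004 with library size alone and did not pass the test there.

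The samples numbered alike did not deviate together (correlation 0.0041 of their deviations from the group means). No label says whether they share a culture or a day, and with 2 samples per group this correlation cannot settle it. With the replicate block, 2 subunits were called lower and 13 of the 14 stayed lower by adjusted p, Ndufb11 being lost (adjusted p = 0.0693), and Ndufs1 and Ndufa4 stayed higher. Ndufc1 passed with library size alone, DESeq2 size factors in edgeR and no filter. Over all genes, 574 were called lower without siScramble replicate 3 and 1159 without siTbk1 replicate 2, against 862 with all samples. With 2 samples per group, small changes such as that of Ndufs3 were not resolved from 0.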
